A study of Mus musculus with 24 samples.

Results

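A set of 403 array probes named by a genomic interval and not by a transcript was detected in brain and seldom in liver, heart or skeletal muscle. The members were chosen by detection alone, out of 16194 probes that the array design names by an interval of the mouse genome build mm9. A member had a signal well above background in all 6 brains and on at most 3 of the 18 arrays of the other tissues. The 403 members lay in 256 of the 3543 different intervals on the array. Because detection in brain against the other tissues selected the probes, that contrast is described here and not tested.

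The 24 arrays came from 6 female mice, each of which gave liver, brain, heart and skeletal muscle. In 3 mice both copies of Rap1 (gene symbol Terf2ip), which encodes a telomere-binding protein that also acts on transcription elsewhere in the genome, carried the I312R mutation introduced with CRISPR/Cas9 (Rap1 KI). The line had been crossed back 4 times to C57BL6, given as C57BL/6N in the study's methods, and the 3 other mice were wild type (WT). By animal number the mice are given the letters A, B and C (KI) and D, E and F (WT). Age was 14 months for C and F and 15 months for the remaining 4. The mutation was present in the whole animal, and a sample was bulk tissue, so that fewer cells of a type and less RNA per cell cannot be told apart.

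Much of the mammalian genome between protein-coding genes is transcribed, in part into long intergenic noncoding RNAs that are spliced and carry a poly(A) tail as messenger RNAs do. Such RNAs are on average less abundant and more tissue-restricted than messenger RNAs, and brain, with its many neuronal and glial cell types, expresses a large variety of them. A signal in an interval can also come from an unannotated end of a nearby gene or from an enhancer. An annotation of mm9 was not used here, so the intervals are given by position and by the strand suffix of the design, F or R, and are not assigned to genes. The suffix is the name in the design, and which genomic strand it denotes was not checked.

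A level is the log2 signal of a probe minus the 75th percentile of its array, so that 0 is the signal at that percentile. Probes bind their targets with different strength, and levels are compared between samples for the same probe only. On the brain arrays 60.3% to 68.4% of all 55681 probes were well above background, against 49.4% to 66.3% on the other arrays. The tissue label was borne out by the marker lists: all 8 neuronal, 6 astrocyte and 6 oligodendrocyte markers were detected in every brain, and the mean level of the neuronal markers was 5.11 to 5.38. The brain of KI mouse C stood apart, because the mean level of 7 liver markers was 4.36 there and -4.39 to -2.20 in the other brains. It also had the lowest mean of 8 cerebellar markers, -0.74 against 1.09 to 1.95, and the highest mean of 5 olfactory mucosa markers, 3.42 against -2.15 to -0.05. Of the cerebellar markers Barhl2 was detected in no brain, and its value enters each mean. Terf2ip, the mutated gene, was detected on all 24 arrays, and its brain level was 1.46, 1.36 and 1.03 in KI and 1.19, 1.66 and 1.36 in WT (difference -0.12, SE 0.19, limma adjusted p = 1.00). The probe does not distinguish the mutated from the wild-type transcript, so it does not check the labels.

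Detection in brain without the other tissues was the less common case among interval probes. Of 5708 interval probes detected in all 6 brains, 3040 were detected on all 24 arrays, and the members made up 7.06%. Of the members, 150 were detected on no array of another tissue, 93 on 1, 84 on 2 and 76 on 3, and 66 further probes were detected on 4 and fell just outside the threshold. The threshold therefore cut through a continuous range of detection and not through a gap.

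**Figure D1:**
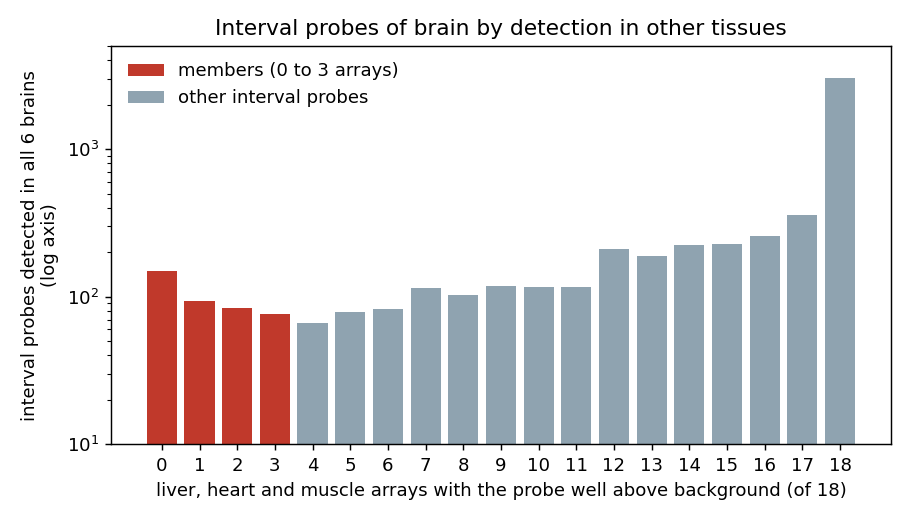
Number of interval probes detected in all 6 brains (vertical, log axis) by the number of the 18 liver, heart and muscle arrays on which the same probe was well above background (horizontal). Red bars are the 403 members, of which 150 were detected on no other array, and grey bars are the remaining probes, of which 3040 were detected on all 18.

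On each side of the threshold the 3 probes of largest bound are given. Detected on 3 other arrays, and so inside, were A_30_P01020620 in chr13:98635795-98646617 (R), whose mean brain level lay at least 438-fold over the other tissues, A_30_P01027901 in chr12:50490638-50508093 (F) at least 22.3-fold and A_30_P01022821 in chr7:91558475-91733625 (F) at least 15.5-fold. Detected on 4, and so outside, were A_30_P01025310 in chr2:108456668-108532418 (R) at least 343-fold, A_30_P01026399 in chr17:33368400-33393525 (F) at least 23.5-fold and A_30_P01023754 in chr7:66874527-67012170 (R) at least 13.6-fold. These are lower bounds, because a probe below background has no measured level: on each array of the other tissue the higher of the probe's own level and the lowest level of any probe well above background was taken, and the mean over the 6 arrays was set against the mean of the 6 brains. The tissue with the highest such mean gave the bound. Bounds have no order among themselves.

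Where members were detected outside brain, this followed the arrays on which most other probes were detected too. The heart of KI mouse B held 114 of the members and the heart of WT mouse D 100, and these arrays had 65.9% and 66.3% of all probes well above background. The liver of WT mouse D held 57 members, the heart of KI mouse C 45 and the liver of WT mouse F 38, and the remaining 13 arrays held 4 to 25. Of the 93 members detected on 1 other array, this was a heart for 46, a liver for 28 and a muscle for 19. Never detected in liver were 292 members, in heart 223 and in muscle 336. The part of array sensitivity in these counts was not tested.

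For 231 of the 403 members the mean brain level lay above the detection floor of liver, heart and muscle alike, and for the other 172 it lay at or under the floor of at least 1 tissue, which in all 172 included muscle, so that no fold can be given. The lowest detected levels were -4.43 to -3.93 on muscle arrays, -5.81 to -4.09 on liver arrays, -5.59 to -4.71 on heart arrays and -6.74 to -5.38 on brain arrays. Against liver alone 343 members had a bound over 1 and against heart 374. The bound over all 3 tissues exceeded 2-fold for 133 members, 4-fold for 68 and 10-fold for 31. Without any scaling between arrays all 403 members lay above the 3 floors, so the count of 231 depends on the scaling to the 75th percentile.

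**Figure D2:**
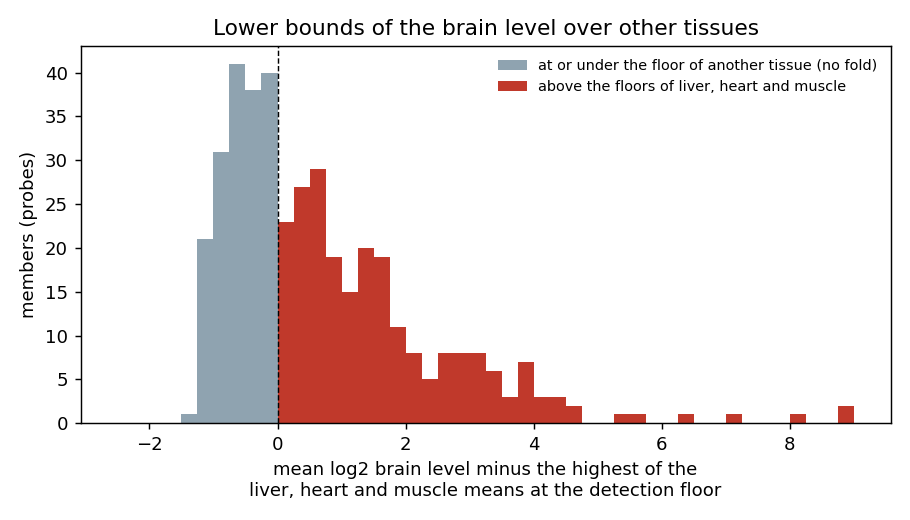
Number of members (vertical) by the mean log2 brain level minus the highest of the liver, heart and muscle means with values below detection set to the array's floor (horizontal, log2). The 231 members right of the dashed line at 0 lay above all 3 floors and the 172 grey members did not, and 31 members had a lower bound over 10-fold.

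The members with the largest bounds were well above background in all 6 brains. For A_30_P01024801 in chr5:52998788-53010250 (R) the brain level was 4.89, 4.70 and 4.42 in KI mice A, B and C and 4.69, 4.67 and 4.79 in WT mice D, E and F. Its values in liver were -7.14 to -6.14, in heart -6.66 to -4.42 and in muscle -6.54 to -4.32, with 1 heart array well above background. For this probe all 6 brains thus lay far above all 18 other samples, by at least 438-fold in the mean. Its interval had 3 probes, all R, and the other 2 were detected in no brain.

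A_30_P01020620 in chr13:98635795-98646617 also lay far above the other tissues, with brain levels of 5.01, 4.72 and 4.32 in KI and 4.70, 4.53 and 4.87 in WT. In liver it reached at most -3.92, in heart -3.95 and in muscle -4.69, and it was well above background in 1 liver and 2 hearts. Both A_30_P01024801 and A_30_P01020620 were lowest in the brain of KI mouse C, the sample with the liver transcripts. The interval of A_30_P01020620 likewise had 3 probes, all R, and the other 2 were detected in no brain.

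A_30_P01030648 in chr1:42689799-42749799 (R) had brain levels of 3.76, 4.06 and 3.89 in KI and 3.94, 3.55 and 4.31 in WT, at least 256-fold over the other tissues. Its highest value outside brain was -4.52, in muscle. The probe of Pantr1, an annotated long noncoding RNA named for its place beside the neural transcription factor gene Pou3f3, was at 3.81, 4.02 and 3.83 in KI mice and 3.90, 3.51 and 4.39 in WT mice and was detected on no other array. In both probes WT mouse E was lowest and WT mouse F highest.

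A further 7 members with bounds over 18-fold, 1 from each interval, were A_30_P01027720 in chr17:32229024-32229663 (F, at least 77.2-fold), A_30_P01017966 in chr3:34856791-34869544 (no suffix, at least 53.5-fold), A_30_P01031881 in chr13:56851404-56851796 (R, at least 38.4-fold), A_30_P01023713 in chr14:105987405-106063477 (R, at least 23.1-fold), A_30_P01027901 (above), A_30_P01033529 in chr6:36790208-36792056 (R, at least 19.1-fold) and A_30_P01020369 in chr2:94082835-94101939 (R, at least 18.9-fold). Of these, A_30_P01031881 was among the most even, at 1.16, 1.15 and 1.17 in KI and 1.33, 1.35 and 0.93 in WT. A_30_P01020369 was detected on no other array. In the remaining 6 the number of other arrays with a detected signal was 1 to 3.

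Most member intervals held 1 member, and 83 held 2 or more. A single member was found in 173 intervals, 2 in 49 and 3 or more in 34, the last holding 132 members. In 25 intervals every probe was a member, 15 of them with 3 or more probes. Probes of the same interval can read the same transcript, so they are not taken as independent members. Whether they share a target was not checked. Of the 741 other probes on the strand of a member in its interval, 25.1% were detected in no brain. Of the 256 intervals 135 were probed on 1 strand or had no suffix, so that members on both strands could not occur there. The other 121 were probed on both strands. In 33 of these the strand of the members was the only one detected in all 6 brains, in 88 both strands were, and 12 had members on both strands.

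The interval chr1:59775022-59780348 is an example of detection on 1 strand: all 5 F probes were members, whereas none of the 4 R probes was detected in all 6 brains. In the adjoining intervals chr2:94046243-94070067 and chr2:94082835-94101939 the 5 R probes of each were detected in all brains, 4 of them members in each, and none of the 5 F probes of each was. In chr14:105987405-106063477, which had 7 members, 8 of 10 R probes and 1 of 8 F probes were detected in all 6 brains. All 5 probes of chr2:78761468-78772543, which was probed on R only, were members.

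In other intervals both strands gave members. The interval chr6:36765550-36793825 had 4 F and 3 R members of 9 probes, chr13:83867711-83878140 4 F and 2 R of 15, chrX:102567595-102589870 1 F and 5 R of 10, and chr15:61984389-62102500 2 F and 3 R of 17. Among the 1298 probes of member intervals that were no members themselves, 45.9% of the 741 on the strand of a member and 35.4% of the 557 on the opposite strand were detected in all 6 brains. In intervals with no member this share was 32.9% of 14493 probes. The R suffix was carried by 218 members (54.1%) and by 49.5% of all interval probes, F by 182 members, and 3 had none.

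The members lay in longer intervals than interval probes at large, with a median of 12088.5 bp against 7304 bp, but the interval probes detected on all 24 arrays had a median of 11763.5 bp. They were spread over all 19 autosomes and the X chromosome. Chromosome X held 39 members in 19 intervals, which was 9.68% of the members, whereas it held 3.56% of all interval probes. Of the X-linked interval probes detected in all brains 18.2% were members, followed by 12.4% on chromosome 7, 11.5% on chromosome 13 and 11.0% on chromosome 9, and the lowest shares were 2.87% on chromosome 4 and 3.02% on chromosome 10. Counted by interval, to allow for several members in 1 place, 12.4% of the X-linked intervals held a member, 16.9% on chromosome 7 and 7.23% over all chromosomes. These shares are descriptions, and all 6 mice were female.

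**Figure D3:**
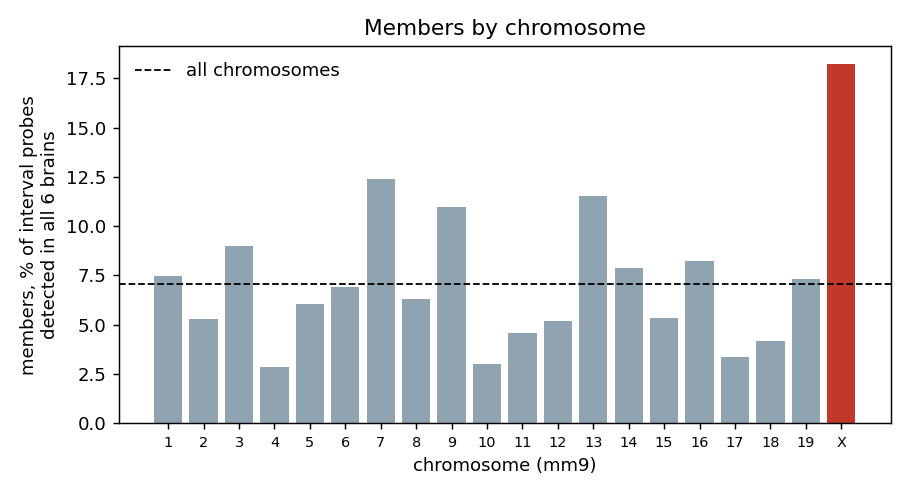
Members as a percent of the interval probes detected in all 6 brains (vertical) on each mm9 chromosome (horizontal), with the share over all chromosomes, 7.06%, as the dashed line. Chromosome X (red) had 18.2% and chromosome 4 had 2.87%.

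Neighbouring member intervals formed chains when intervals under 100 kb apart were joined. There were 7 chains of 3 or more intervals with 49 members, 33 of 2 intervals, and 162 intervals that stood alone. Some intervals of a chain overlap, so that their probes can read the same transcript. The chain at chr12:110842154-110988678 held 8 members in 5 intervals, 4 F and 4 R. The chain at chr7:140011140-140019064 held 7 members in 5 intervals, all R, and the chain at chr7:68849401-69127242 5 members in 5 intervals, all R. The last was probed on R only. In the chain at chr7:140011140-140019064 only the interval chr7:140011140-140018815 was probed on F as well. None of its 5 F probes was detected in all 6 brains. Chains of 3 intervals lay at chr13:83860985-84023718 with 8 members, chrX:148720661-148851243 with 7 and chr13:94183152-94189810 with 3.

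The chain at chr16:40267386-40315564 held 11 members in 4 intervals over 48.2 kb. These intervals were probed on F only, so that every member there carries F by design. All 11 had a brain level above the floors of the other tissues (at least 1.32-fold to 8.02-fold), and 5 were detected on no other array. Of the 12 F probes in these 4 intervals 11 were members, and the remaining 1 was detected in 4 brains. An overlapping longer interval, chr16:40307931-40318856, had 3 F and 3 R probes, none of them detected in more than 1 brain. Its 3 F probes had WT mouse D highest and WT mouse E lowest, at -4.23 and -8.85 in A_30_P01029948, but a level below background is not measured. The R probe A_30_P01019692, detected in no brain, had the same order, at -7.44 and -8.81. The order of mice in this interval is therefore not read as a signal.

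This chain also varied most between mice, more than any other chain of 3 or more intervals. In A_30_P01020887 of chr16:40267386-40268181 the brain level was -0.79, -1.86 and -0.59 in KI and 0.80, -2.93 and -1.09 in WT. In A_30_P01033303 of chr16:40283097-40284822 it was -2.57, -3.90 and -2.02 in KI and -1.32, -5.59 and -2.36 in WT. In A_30_P01031802 of chr16:40307070-40308718 it was -2.20, -3.49 and -2.15 in KI and -0.75, -5.01 and -2.61 in WT.

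WT mouse D was highest and WT mouse E lowest in all 11 probes, and the KI mice lay between them. The difference of D over E was 3.50 to 4.27 on the log2 scale with a median of 4.00, which is 16-fold in the median probe. The SD over the 6 brains was 1.17 to 1.54, against a median of 0.37 over all members. With other normalizations the median difference of D over E was 3.11 to 3.59. Because both mice were WT, the genotypes overlapped in every probe, and the median KI minus WT difference was -0.01.

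**Figure D4:**
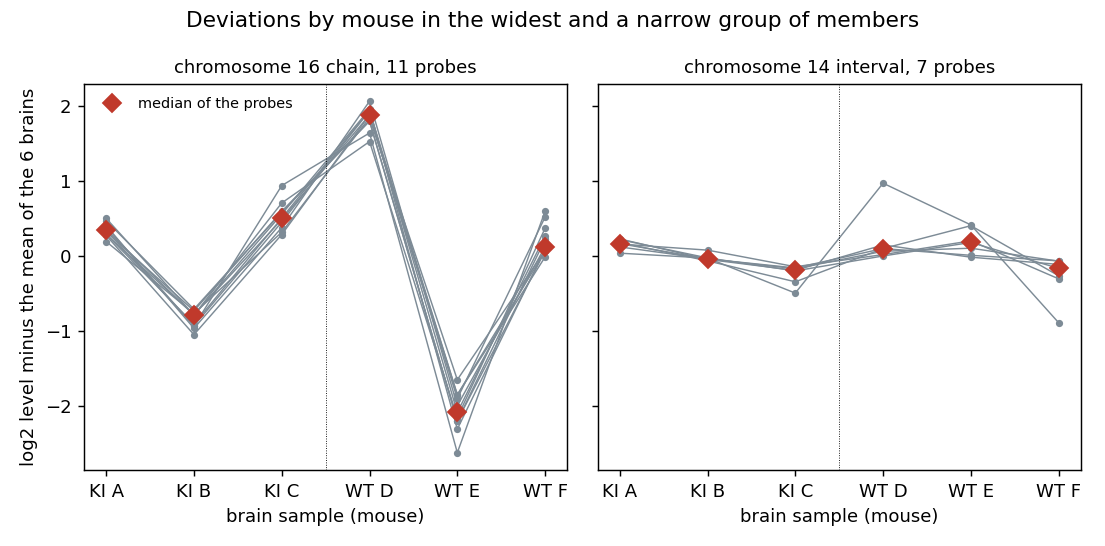
Log2 level of each probe minus its mean over the 6 brains (vertical) for each mouse (horizontal), in the 11 members of the chromosome 16 chain (left) and the 7 members of the chromosome 14 interval (right). Grey lines are probes and red diamonds their median: in the chain WT mouse D lies 1.88 above and WT mouse E 2.09 below, whereas the chromosome 14 medians stay near 0.

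The same 2 mice marked the ends in other places. In chrX:102567595-102589870, counted with an overlapping interval, all 9 members were highest in WT mouse D and lowest in WT mouse E, by 1.38 to 3.35. In A_30_P01018495 there the level was -2.27, -3.22 and -2.35 in KI and -1.19, -3.72 and -2.43 in WT. In chr6:36765550-36793825, also counted with an overlapping interval, all 8 members were lowest in WT mouse E and 4 were highest in WT mouse D.

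Of the 401 members with a value on all 6 arrays, 86 (21.4%) had WT mouse D highest and WT mouse E lowest, against 10.6% of all probes detected in the 6 brains and 15.6% of the interval probes detected on all 24 arrays. The reverse order occurred in 9 members (2.24%). Members in which D exceeded E by over 1 numbered 87 (21.7%), against 7.17% of all probes and 10.8% of the interval probes detected on all 24 arrays. Of 10 annotated long noncoding RNAs with a probe 1 had D highest and E lowest, 6 had D above E and 4 had E above D. That 1 was Kcnq1ot1, the antisense RNA of the imprinted Kcnq1 locus, at -0.16 in WT mouse D and -2.81 in WT mouse E with the other 4 brains between -1.67 and -1.38.

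These brains also differed in other measures. The brain array of WT mouse E had the highest 75th percentile signal, 2198 against 1494 for WT mouse D, with KI mouse C lowest at 1233, and the largest share of probes detected, 68.4% against 61.1%, and the 2 arrays lay on different slides. The 6 striatal markers had a mean of 2.08 in D, 1.14 in E and 2.28 in KI mouse C. The 8 cerebellar markers had a mean of 1.09 in D, 1.95 in E and -0.74 in KI mouse C. The part of these differences in the order was not tested.

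Members also varied more than interval probes found in every tissue, with a median SD over the 6 brains of 0.37 against 0.23. At brain levels between -4.49 and -2.58, the middle range of the members, the median SD was 0.39 for 201 members and 0.28 for 2318 other interval probes detected in all brains. Not all members were variable: the 7 of chr14:105987405-106063477 had a median SD of 0.17 (0.11 to 0.66, the highest in A_30_P01029141). A_30_P01023713 of that interval was at 0.71, 0.50 and 0.38 in KI and 0.64, 0.55 and 0.47 in WT.

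In a few members 1 brain alone was high. A_30_P01020899 in chr1:139847592-139848243 (F) was at -1.26 in WT mouse D and at -6.21 to -4.23 in the other brains, and its mean gave no bound over the other tissues. A_30_P01018170 in chr15:95965249-96114921 (R) was at -0.997 in KI mouse A and at -4.80 to -4.08 in the others. Both mice had their brain arrays on the first slide and the other 4 brains were on the second, and the part of the slide in these values was not tested.

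The genotype did not enter the choice of the members, and KI was therefore compared with WT by a test in brain. No member passed the adjusted threshold: 0 of 403, with 0% of all 33605 probes tested passing (limma, Benjamini-Hochberg adjusted p under 0.05). At an unadjusted p under 0.05, 10 members (2.48%) were counted, against 0.997% of all probes. Of these 1 was higher in KI, with 0.417% of all probes, and 9 were lower, with 0.58% of all probes. In 15 members (3.72%) the 3 KI and 3 WT values did not overlap, against 3.1% of all probes, so that this share was near the background. KI was higher in 2 of them, with 1.32% of all probes, and lower in 13, with 1.78% of all probes. The adjusted p of all members was 1.00.

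The median KI minus WT difference over the members was -0.08, with 272 below and 131 above 0 (67.5% below), against a median of -0.03 and 58.5% below 0 over all probes tested. The median level of the members was -3.78 in KI (SD 0.05, n = 3) and -3.70 in WT (SD 0.28, n = 3), a difference within the spread of the WT mice. With normexp background correction the median difference was 0.01, without WT mouse D -0.01, without KI mouse C -0.03 and without WT mouse E -0.20. The count of members at an unadjusted p under 0.05 was 38 without WT mouse E (9.43%, against 3.12% of all probes) and 16 without KI mouse B (3.97% against 2.32%). It was 6 without WT mouse D (1.49% against 1.25%) and 4 without KI mouse A (0.993% against 1.32%). Without KI mouse C it was 7 (1.74% against 1.12%) and without WT mouse F 9 (2.23% against 1.29%). With array weights it was 27 (6.70% against 2.92%), with z-scores 20 (4.96% against 1.73%), with no detection filter 5 (1.24% against 1.52%), with normexp 1 (0.248% against 0.423%) and over all 24 arrays 0 (0% against 0.723%). A count of 0 at the adjusted threshold with 3 mice a group does not show that the members did not differ.

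**Figure D5:**
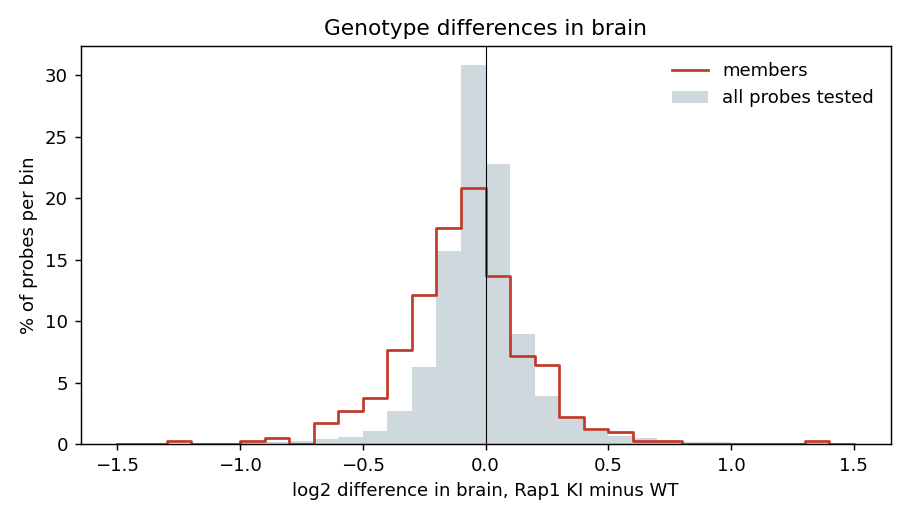
Percent of probes (vertical) in bins of 0.1 of the log2 KI minus WT difference in brain (horizontal), for the 403 members (red line) and all 33605 probes tested (grey bars), drawn from -1.5 to 1.5. The quartiles of the members were -0.23 and 0.05, against -0.11 and 0.06 for all probes, and the median was -0.08 against -0.03. The median SE was 0.271 for the members and 0.194 for all probes. Differences over 1 in size occurred in 2 of the 403 members and in 378 of the 33605 probes. Outside the drawn range lay 146 probes and 0 members. No member passed the adjusted threshold.

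The lowest unadjusted p belonged to A_30_P01022551 in chr9:41408354-41420812 (F), at -5.09, -5.46 and -5.37 in KI and -4.53, -4.98 and -4.51 in WT. All 3 KI brains lay below all 3 WT brains, by 0.63 in the mean (SE 0.19, limma adjusted p = 1.00), but these levels lie near the detection floor and gave no bound over the other tissues, and with normexp the difference was -0.08. A_30_P01028041 in chrX:148720661-148763177 (R) was at -4.39, -4.13 and -4.14 in KI and -3.48, -3.80 and -3.85 in WT, again without overlap (-0.51, SE 0.17, limma adjusted p = 1.00), and the difference was -0.21 with normexp. The other R member of that interval differed by -0.27 and its 3 F members by -0.06 to 0.07.

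A_30_P01027709 in chr3:96074625-96086375 (F) was at -2.84, -3.04 and -2.81 in KI and -2.45, -2.62 and -2.06 in WT, also without overlap (-0.53, SE 0.19, limma adjusted p = 1.00; -0.35 with normexp). Of the members higher in KI, the lowest unadjusted p belonged to A_30_P01025561 in chr18:36072785-36076426 (F), at -4.84, -4.68 and -5.01 in KI and -4.99, -5.82 and -5.38 in WT (0.55, SE 0.23, limma adjusted p = 1.00). Its genotypes overlapped, since KI mouse C lay below WT mouse D, and the difference was 0.31 with normexp and 0.34 without WT mouse E.

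The 4 members of chr2:94082835-94101939 had differences of 0.29 each, with the mean higher in KI. A_30_P01020369 was at 0.29, 0.28 and 0.34 in KI and -0.12, 0.05 and 0.13 in WT (SE 0.14, limma adjusted p = 1.00). A_30_P01018509 was at -0.32, -0.36 and -0.36 in KI and -0.79, -0.52 and -0.60 in WT (SE 0.14, limma adjusted p = 1.00). KI and WT did not overlap in these 2 probes and overlapped in the other 2, and 1.32% of all probes had KI above WT without overlap.

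The 4 members of the adjoining chr2:94046243-94070067, also R, differed by -0.14 to 0.20 and were highest in WT mouse D and lowest in WT mouse E. Neighbouring intervals of the same strand thus followed different orders of mice. Over the 83 intervals with 2 or more members, all members had a difference below 0 in 44, all above 0 in 14, and both signs occurred in 25.

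All 8 members of the chain at chr12:110842154-110988678 had a KI minus WT difference below 0, from -0.43 to -0.05 (limma adjusted p = 1.00 for each), and KI and WT overlapped in each. In 6 of the 8 WT mouse D was highest. Meg3 and Mirg, maternally expressed long noncoding RNAs of the imprinted Dlk1 region, were measured by probes of their own and were at 5.54 and 2.21 in WT mouse D and at 4.51 to 5.13 and 1.01 to 1.81 in the other brains. The Meg3 probe was detected on all 18 arrays of the other tissues and the Mirg probe on 15, so neither would have met the detection rule.

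Of 23 annotated long noncoding RNAs known from brain or as common nuclear RNAs, 10 had a named probe, and all 10 were detected in all 6 brains. None passed the adjusted threshold in KI against WT by limma or an unadjusted p under 0.05, and 3 had a difference above and 7 below 0. Pantr1 and Dlx6os1, the antisense RNA of the forebrain gene Dlx6, were detected on no other array, and Tunar, a noncoding RNA of neural differentiation, and Mir9-3hg, a host of the neural microRNA miR-9, on 1 each. These 4 would have met the detection rule of the interval probes. Dlx6os1 was at -1.15, -1.72 and -0.11 in KI and -1.25, -1.69 and -1.28 in WT, and KI mouse C was the highest of the 6.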

How the data were processed

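Total RNA of liver, brain, heart and skeletal muscle was labelled with Cy3 per the labels, and each sample had its own array. The authors extracted the scans with Agilent Feature Extraction 12.0.3.1, and the deposited intensity used here is its processed signal, corrected for background and spatial trend and not scaled between arrays. The detection flag of the same program, per the file headers, marks a spot as well above background. The authors also deposited a table of scores, which matched z-scores of the log10 processed signal within each array to 0.005; it held 0 of the interval probes and served only as an alternative over all probes.

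Control spots were dropped, the 121 to 347 outlier spots of an array were left out of the signal, and repeat spots were averaged, giving 55681 probes. Detection was taken over all spots of a probe, outlier spots included, so that a detected probe can lack a signal value. No spot was saturated. Values were log2 signals from which the 75th percentile of the array was subtracted. Symbols of gene probes came from RefSeq accessions (assembly GRCm38.p6, 99.0% of 26732 matched), and the probe with the highest mean stood for a gene. Brain KI and WT, 3 arrays each, were compared by limma 3.58.1 (R 4.3.3) over the 33605 probes well above background on all 3 arrays of a genotype, two-sided, with Benjamini-Hochberg adjustment over all of them. The fit was tested on simulated data. With 3 against 3 an exact permutation test cannot go below 0.1, so none was run. Array number limits the precision.

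The members, lists and tests were chosen with earlier results of these data known. Named were the 3 members of lowest p in each direction, the 10 of largest bound (1 per interval), the 5 of largest SD, those of the 5 intervals with most members, and those beside the threshold; members of chains and single-strand intervals were chosen after their values were seen.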

Additional observations from a re-analysis of the deposited data

How the results depend on the processing

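No limma fit called a member or any other probe at an adjusted p under 0.05, whatever the normalization, background correction, detection filter, slide block or array weights, or brain left out (0 members to 0 members, 0 probes to 0 probes). A z ratio over 1.5 with an unadjusted p under 0.05 counted 20 of the 403 members and 543 of the 33605 probes tested, a larger share of the members. The median KI minus WT difference over the members, -0.08, moved by less than the pooled SD of 0.204 in all alternatives, from -0.20 to -0.01 with 1 brain left out, to -0.13 with quantile normalization and to 0.01 with normexp. The mouse numbers pair the tissues of a mouse and not KI with WT; with the mouse as a replicate block over all 24 arrays (correlation -0.015) the calls stayed at 0 and the median at -0.08. The 6 members named by p kept their direction in every alternative run, but with normexp 4 of them shrank by over 1.5 times, A_30_P01022551 from -0.63 to -0.08. The deposited scores hold no member and gave no value for them.

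The number of members, 403, was 150, 243 and 630 when 0, 1 and 6 other arrays were allowed, and 403 to 435 with 1 brain left out. The weaker flag of a signal merely above background in place of the stricter one gave 140, of which 54 were among the 403. Alternatives chosen after seeing the data left 238 members above all floors without the brain of KI mouse C, 281 with quantile normalization and 403 without scaling, against 231. Against that scaling, 172 members lie too close to the floors of the other tissues for any fold.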
